A study of Xenopus tropicalis with 31 samples.

Results

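The Hox windows described here are the accessible regions that the deposited annotation assigned to a gene of the hoxa, hoxb, hoxc or hoxd cluster. ATAC-Seq (a transposase inserts sequencing adapters into open chromatin, so that fragments pile up where DNA is accessible) was counted in 124349 windows of 400 bp. Windows were chosen by the name of their nearest gene alone, with no measured value, and joined to the raw counts. This gave 78 windows for 32 Hox genes among the 117398 windows with a named gene. All 78 passed the filter on low counts and were tested together with every other window that passed.

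Hox genes encode homeodomain transcription factors that give cells their position along the head to tail axis. Within each cluster they lie in the order in which they are used, with low paralog numbers acting anteriorly and high paralog numbers acting in the trunk and tail. In the spinal cord, Hox proteins set the identity of motor neuron columns together with their Pbx and Meis cofactors, and Polycomb proteins keep the genes that a cell does not use silent.

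All samples came from Xenopus tropicalis tadpoles that carried the transgenes pax6:GFP, cryga:RFP and also actc1:RFP, in which pax6 regulatory sequence drives GFP in neural progenitors. Tails were amputated at NF stage 41 and cells were collected from uninjured tails and at 0, 6, 24 and 72 hours post amputation (hpa). The uninjured sample was the amputated tail tip. From 0hpa onward the last 500 µm or so of the remaining or regrown tail was taken. The 0hpa samples thus also differ from the uninjured ones in position along the tail. How the tissue taken at later times compares with the tip in position was not examined. For the pax6 libraries GFP+ cells were sorted, and for the all-tissue libraries both GFP+ and GFP- cells were taken, in either case from pooled tails. The labels give this genotype for all groups, the uninjured ones included, while the column headers of the all-tissue counts read WT. There were 13 pax6 and 14 all-tissue samples, 3 in each of the 10 tissue and time groups except pax6 uninjured, pax6 0hpa and all-tissue 0hpa, which held 2. Nothing in the labels says whether replicates came from separate clutches or experiments, so the p-values measure the spread between these samples.

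Total counts per sample ranged from 3069659 to 13256076, with a median of 6636214. The median Hox window held 14 to 58 fragments per sample and no Hox window was empty in any sample used. Another 2 libraries, with 11 and 143 counts, were left out. The pax6 72hpa replicate 3 library had 174 empty windows among all windows, against at most 38 in the other libraries used. The second library of all-tissue uninjured replicate 1 correlated with the first less closely (Pearson's r 0.817 across windows, on log2 CPM) than with replicate 3 of its group (0.921). The window upstream of pax6 was more accessible in the pax6 libraries by 1.53 on the log2 scale (edgeR's quasi-likelihood test, adjusted p = 1.12e-11). Levels are given in CPM, counts scaled to the normalised library size. The promoter windows of 8 neural progenitor genes summed to 35.1 to 54.2 CPM (median 45.5) in pax6 samples. In all-tissue samples the sum was 37.4 to 59.1 CPM (median 47.3), so this list did not separate the tissues. Among markers of other cell types, the promoter windows of 5 epidermis genes summed to 15.7 to 25.9 CPM (median 19.6) in pax6 samples. In all-tissue samples they summed to 15.3 to 33.2 CPM (median 26.0). The promoter windows of 3 neuron genes summed to 16.6 to 24.4 CPM (median 19.5) in pax6 and 16.2 to 24.0 CPM (median 22.0) in all-tissue samples. Single windows away from the promoters of the epidermal genes krt8 and tp63 were lower in pax6 (log2 difference -0.74 and -0.67, adjusted p = 0.0065 for both with edgeR). Windows of the notochord gene not (-0.34, adjusted p = 0.0233) and the blood gene runx1 (-0.42, adjusted p = 0.0303) were lower too. A window of the neuronal gene elavl3 was higher (0.63, adjusted p = 0.0467). These calls were 2 of 49 epidermis (4.08%), 1 of 29 notochord (3.45%), 1 of 62 blood (1.61%) and 1 of 93 neuron windows (1.08%), beside 1.81% of all windows. Of the neural progenitor windows 2 of 106 (1.89%) were called, both of them windows of pax6. DESeq2 called no blood or neuron window. The actc1 promoter, the single promoter window of the muscle list, lay higher in the pax6 libraries (log2 difference 1.33, adjusted p = 3.79e-10 with edgeR). It was the 1 window called of 19 muscle windows (5.26%). The transgenes carry pax6 and actc1 regulatory sequence, whose part in the values of the pax6 and actc1 windows was not tested.

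The 4 clusters lie on different chromosomes of genome version 9.0, the build of the files. The hoxa windows (12 windows, 8 genes) span 126 kb of chromosome 6 from 32841538, with hoxa13 at the low end. The hoxb windows (18 windows, 8 genes) span chromosome 10 from 4998954 to 5140072, from hoxb1 to hoxb9. The hoxc windows (34 windows, 9 genes) span chromosome 2 from 142747280 to 143206241, from hoxc3 to hoxc13, and the hoxd windows (14 windows, 7 genes) span chromosome 9 from 59900560 to 60035586, from hoxd13 to hoxd1. The hoxc stretch was the longest, at 459 kb, because the hoxc13 windows, 15 of the 34, reach 179298 bp upstream of hoxc13, the gene at that end of the cluster. A window is assigned to the nearest transcription start site (TSS), which does not show which gene it acts on.

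Hox windows lay close to promoters more often than windows in general. Of the 78, 26 (33.3%) lay within 1000 bp of a TSS, compared with 12.1% of all annotated windows. For 22 of the 32 genes the nearest such window served as the promoter window below. The hoxa cluster held 9 of its 12 windows within 1000 bp of a TSS, whereas the hoxc cluster held 8 of its 34 there. Whether the remaining windows lie in introns, exons or between genes was not analysed here. The 2 hoxc11 windows overlap, and how fragments in the overlap were counted was not checked.

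Most Hox windows were of middling accessibility. The median Hox window had a mean of 4.52 CPM over the 27 samples (range 2.91 to 193), and 6 of the 78 windows exceeded 10 CPM. Over all tested windows the median was higher, at 4.84 CPM, and 19385 of 124342 exceeded 10 CPM. Since all windows are 400 bp long, levels can be compared per length. The most accessible Hox window was hoxb1 window 5, 5178 bp upstream of hoxb1 (chromosome 10, 5024175 to 5024574). hoxb1 patterns a segment of the hindbrain in mouse. This window had a mean of 193 CPM, with only 142 windows of the whole data set above it, and its level ran from 158 to 256 CPM (median 178) in pax6 samples and from 155 to 253 CPM (median 189) in all-tissue samples. It alone made up 24.3 to 36.7% of the summed Hox level of a sample.

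The next most accessible windows also lay away from promoters. hoxb9 window 1, 8524 bp upstream of hoxb9, a gene that patterns the thoracic skeleton in mouse, had a mean of 59.0 CPM. hoxc5 window 1, 17541 bp downstream of the hoxc5 start, had a mean of 37.0 CPM. The highest window of the hoxa cluster was the hoxa13 promoter (6.47 CPM), and in the hoxd cluster no window exceeded 7.41 CPM. Windows above 20 CPM were thus found only in the hoxb (2) and hoxc (1) clusters. The median levels were 4.53, 5.24, 4.18 and 5.01 CPM in hoxa, hoxb, hoxc and hoxd.

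**Figure D1:**
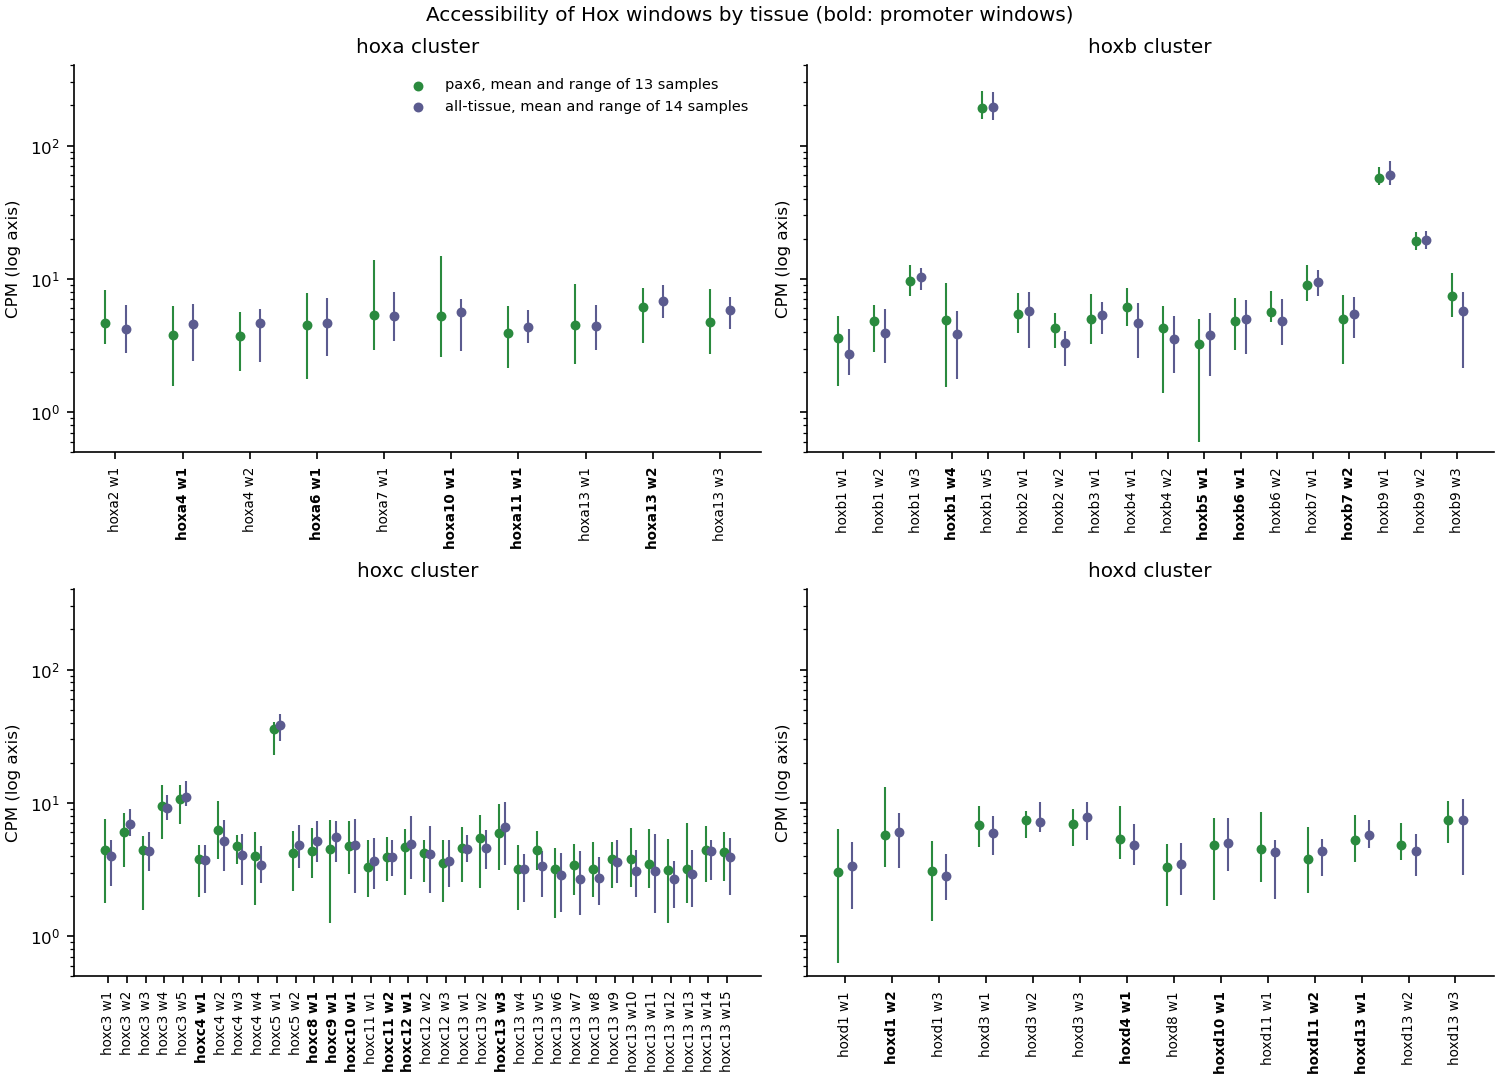
Level of 76 of the 78 Hox windows in CPM on a log axis, 1 panel per cluster, windows ordered by paralog number (promoter windows in bold). Points are the mean and lines the range over 13 pax6 (green) and 14 all-tissue (violet) samples. The ranges of the 2 tissues overlap for every window plotted, and hoxb1 w5 (193 CPM), hoxb9 w1 (59.0 CPM) and hoxc5 w1 (37.0 CPM) stand above the rest.

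Among the 22 genes with a window within 1000 bp of the TSS, promoter levels spanned a narrow range, and the other 10 genes had no such window to compare. The 22 promoter windows had means between 3.52 CPM (hoxb5) and 6.47 CPM (hoxa13), a ratio of 1.84, and a median of 4.85 CPM. All annotated windows within 1000 bp of a TSS had a median of 5.45 CPM. The promoters of both the anterior gene hoxd1 (5.92 CPM) and the posterior genes hoxa13 and hoxc13 (6.30 CPM) were at the upper end. Paralog group 13 acts at the posterior end of the body axis and in the tips of the limbs. The promoters of paralog group 11, whose genes act in the kidney and the forearm in mouse, were all near the lower end, with 3.94 CPM for hoxc11, 4.09 CPM for hoxd11 and 4.16 CPM for hoxa11. Across the promoter windows the level showed little relation to paralog number (Spearman's rho 0.18 over 22 windows, which share libraries and depth). Across all 78 windows rho was -0.24, described without a test.

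The comparison of pax6 with all-tissue samples asks whether the GFP+ sorted cells differ from the tail as a whole in Hox accessibility. According to the paper, differentiated neurons may be among the GFP+ cells. Its single-cell RNA data of GFP+ cells also held clusters outside the neural lineage. The values below are thus those of the sorted cells, which may not all be neural progenitors. None of the 78 Hox windows was called at an adjusted p under 0.05 with edgeR's quasi-likelihood test, while 1.81% of all 124342 tested windows were. DESeq2 called none either. At an unadjusted p under 0.05 there were 15 Hox windows (19.2%), beside 14.6% of all windows. Of these, 10 were higher in pax6 (6.67% of all windows were) and 5 lower (7.90% of all windows were). In these bulk libraries fewer cells of a type and less accessibility per cell cannot be told apart. The log2 fold changes of the Hox windows ran from -0.38 to 0.44 with a median of -0.01. The 95% interval of the difference lay within 1 log2 unit of 0 for 78 of the 78 windows, so a 2-fold difference between the tissues was outside the interval of each Hox window. For no Hox window were all pax6 samples separated from all all-tissue samples, which was the case for 44 (0.0354%) of the 124342 windows.

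**Figure D2:**
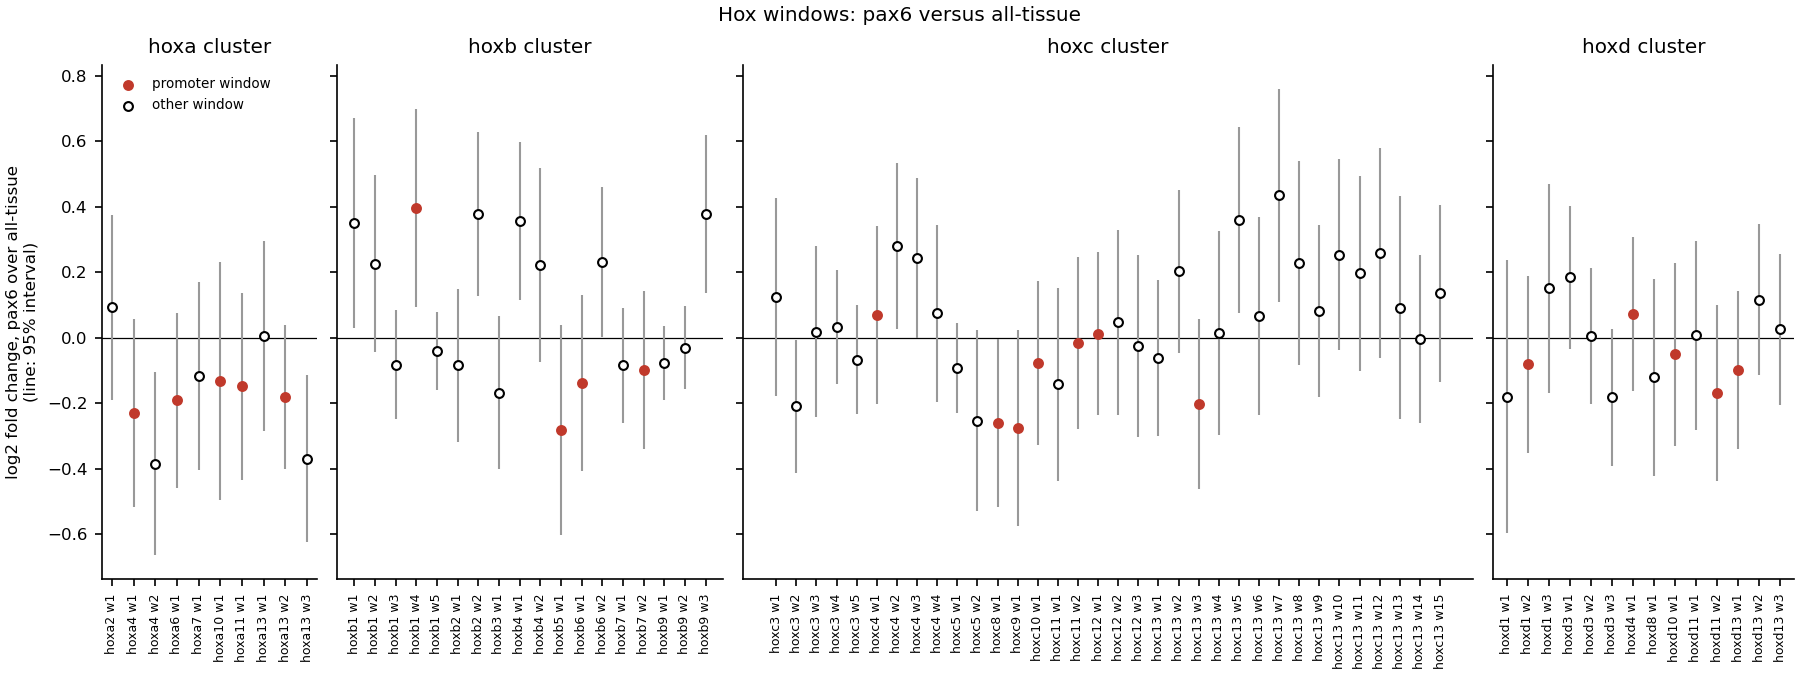
Log2 fold change of pax6 over all-tissue samples for 76 of the 78 Hox windows, averaged over the 5 timepoints, with the 95% interval as a line. Promoter windows (red) lie mostly below 0, with 17 of the 21 plotted negative, and no window passed the adjusted threshold.

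The 3 windows with the smallest p all belonged to the hoxb cluster and had higher values in pax6 samples, without passing the threshold. hoxb9 window 3, 20576 bp upstream of hoxb9, had 5.16 to 11.1 CPM (median 7.17) in the pax6 samples and 2.14 to 8.03 CPM (median 6.04) in the all-tissue samples. The log2 difference was 0.38 ± 0.12 (SE; edgeR's quasi-likelihood test, adjusted p = 0.0919). The ranges overlapped between 5.16 and 8.03 CPM, and the lowest all-tissue value came from a 24hpa sample. Without all-tissue 24hpa replicate 3 or without pax6 72hpa replicate 2 this window passed, with adjusted p as low as 0.0424, and over all samples left out in turn the adjusted p reached 0.195.

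hoxb2 window 2, 4644 bp upstream of hoxb2, a hindbrain patterning gene in mouse, had 3.03 to 5.56 CPM (median 4.35) in pax6 and 2.23 to 4.04 CPM (median 3.28) in all-tissue samples. Its log2 difference was 0.38 ± 0.12 (adjusted p = 0.108 with edgeR). hoxb4 window 1, 6397 bp downstream of the start of hoxb4, which acts in the hindbrain and neck region in mouse, had 4.42 to 8.50 CPM (median 6.10) in pax6 and 2.57 to 6.59 CPM (median 4.46) in all-tissue samples. Its log2 difference was 0.36 ± 0.12 (adjusted p = 0.113 with edgeR). For both windows the median pax6 sample exceeded the median all-tissue sample, and the highest all-tissue samples lay within the pax6 range.

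Promoter windows and distal windows of the Hox genes pointed in opposite directions between the tissues, as they did in the whole data set. Of the 22 promoter windows 18 were below 0, with a median log2 fold change of -0.13. All 26 Hox windows within 1000 bp of a TSS had a median of -0.15 with 84.6% below 0, and all annotated windows within 1000 bp had a median of -0.11 with 72.1% below 0. Beyond 10000 bp, 69.2% of the 26 Hox windows were above 0 (median 0.08), compared with 54.1% of all such windows (median 0.02). These counts describe windows of shared libraries and none of the Hox windows behind them passed the test.

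In the hoxa cluster 10 of 12 windows were below 0 (median -0.19), the 2 exceptions being the most distal windows, those of hoxa2 (0.09) and 29393 bp upstream of hoxa13 (0.01). In the hoxc cluster 21 of 34 windows were above 0 (median 0.04), including 11 of the 12 upstream hoxc13 windows, whose median was 0.17. The hoxc13 promoter itself (window 3) had a log2 fold change of -0.20. The hoxb and hoxd windows were balanced, with 8 of 18 and 7 of 14 above 0. By paralog group, 10 of the 11 windows of groups 5 to 8 were below 0 (median -0.12), compared with 13 of 31 in groups 1 to 4 and 17 of 36 in groups 9 to 13. Of the 11 windows of groups 5 to 8, 5 were promoter windows, all below 0, and among the other 6 only hoxb6 window 2 was above 0 (0.23). The promoter window of hoxb1 was the largest exception among promoters, at 0.40, and lies 821 bp from the TSS.

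Within single timepoints no Hox window was called with edgeR or DESeq2 between the tissues. The shares of all windows called were 0.0129% in uninjured tails, 0.00724% at 0hpa, 0.0844% at 6hpa, 0.0410% at 24hpa and 0.369% at 72hpa. The Hox windows with an unadjusted p under 0.05 numbered 9, 8, 8, 7 and 5 of 78 in the same order (11.5, 10.3, 10.3, 8.97 and 6.41%), beside 7.30, 5.74, 9.13, 6.99 and 11.3% of all windows. At 72hpa all 5 were higher in pax6 (5.04% of all windows were), among them hoxd4 window 1, the hoxd4 promoter, with 5.82, 5.73 and 9.49 CPM in the pax6 samples and 4.30, 4.46 and 4.48 CPM in the all-tissue samples (log2 difference 0.65 ± 0.23, adjusted p = 0.219 with edgeR). The groups did not overlap for this window at that time, and it was chosen after its values were seen. Its highest value, 9.49 CPM, came from pax6 replicate 3, the library with 174 empty windows. The share of all windows without overlap at that time was not counted. In uninjured tails 7 of the 9 were lower in pax6 (3.62% of all windows were), among them the promoters of hoxa6 (log2 difference -0.96 ± 0.36) and hoxc13 (-0.87 ± 0.33), with adjusted p = 0.498 and 0.519. Without pax6 uninjured replicate 1, hoxc5 window 1 passed in uninjured tails, where that group is then represented by 1 sample.

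The comparisons over time ask whether amputation and regeneration were accompanied by changes at the Hox clusters. They average both tissues and share the 5 uninjured samples, so a low or high uninjured value appears in each of them. Since the uninjured samples were tail tips and the 0hpa samples came from the remaining tail, amputation and position along the tail cannot be told apart at 0hpa. For the later times a part played by position was not tested. At 0hpa no window of the data set was called with edgeR (0.00% of 124342), and 4 of 78 Hox windows (5.13%) had an unadjusted p under 0.05 beside 4.03% of all windows. At 6hpa no Hox window was called (0.000804% of all windows were) and 8 (10.3%) had an unadjusted p under 0.05 beside 7.53%. At 24hpa none was called (0.0241% of all) and 12 (15.4%) had an unadjusted p under 0.05 beside 9.86%. At 72hpa none was called (0.180% of all) and 9 (11.5%) had an unadjusted p under 0.05 beside 11.0%. DESeq2 called no Hox window in any of these comparisons, and edgeR's likelihood ratio test called 1, hoxa6 window 1 at 24hpa.

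Averaged over both tissues, more Hox windows had values above than below those of uninjured tails at 24 and 72hpa, by small amounts. At 24hpa 54 of 78 Hox windows were above 0 with a median log2 fold change of 0.08, compared with 49.9% of all windows. At 72hpa 52 of 78 were above 0 (median 0.06), compared with 49.7% of all, and these included 12 of the 12 hoxa windows (median 0.13). Of these hoxa windows, 9 lie within 1000 bp of a TSS, a class whose direction over all windows at 24hpa is given below. The share of that class above 0 at 72hpa is not given here, so the hoxa count is not set against it. Within the tissues at 72hpa, 50 of 78 Hox windows were above 0 in pax6 samples (median 0.14) and 37 of 78 in all-tissue samples (median -0.01). For the hoxa windows these counts were 10 and 6 of 12. The pax6 72hpa samples differed among themselves. In replicate 3, the library with 174 empty windows, the hoxa windows summed to 79.1 CPM, beside 58.5 and 57.0 CPM in replicates 1 and 2. All Hox windows summed to 750 CPM in replicate 3, beside 652 and 626 CPM. The counts within the tissues were not repeated without this library. At 24hpa 51 of 78 Hox windows were above 0 in pax6 and 46 of 78 in all-tissue samples. The hoxd windows above 0 at 24hpa numbered 13 of 14 in the average, 13 in all-tissue samples (median 0.30) and 10 in pax6 samples (median 0.07), and the difference between the tissues was not tested for these counts. Promoter windows of the whole data set shared this direction. At 24hpa 17 of the 22 Hox promoter windows were above 0 (median 0.19), and 70.2% of all annotated windows within 1000 bp of a TSS were (median 0.15).

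The hoxa6 promoter had the smallest p of the Hox windows at 24hpa. hoxa6, a trunk gene of the middle of the cluster, had its window 30 bp from the TSS on chromosome 6 (32916619 to 32917018). In uninjured tails it held 3.67, 2.64 and 5.22 CPM in the all-tissue samples and 1.77 and 2.56 CPM in the pax6 samples. At 24hpa it held 6.13, 7.23 and 5.24 CPM in the all-tissue samples and 6.90, 4.18 and 4.36 CPM in the pax6 samples. Within each tissue every 24hpa sample was above every uninjured sample, in all-tissue samples by 5.24 against 5.22 CPM at the closest. This window was named for its small p, and the share of all windows separated in this way was not counted. The same holds for the windows below whose groups are said not to overlap. The log2 fold change was 0.99 ± 0.22 (edgeR's quasi-likelihood test, adjusted p = 0.0697).

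The log2 fold change of the hoxa6 promoter was above 0 at the other times too. The 4 samples at 0hpa held 4.96 and 4.29 CPM in all-tissue and 7.83 and 4.47 CPM in pax6, with a log2 fold change of 0.82 ± 0.24 over uninjured (adjusted p = 1.00 with edgeR). At 72hpa the samples held 4.98, 3.48 and 5.0 CPM in all-tissue and 5.13, 5.03 and 3.95 CPM in pax6, with a log2 fold change of 0.72 ± 0.22 (adjusted p = 0.152). All 3 comparisons use the same uninjured samples, of which those of pax6 were the lowest of the whole series for this window, with 10 to 66 fragments behind the values. For 24hpa, hoxa6 passed the threshold without all-tissue 0hpa replicate 1, without all-tissue 0hpa replicate 3 or without pax6 72hpa replicate 3 (adjusted p as low as 0.0386). None of these samples belongs to the 24hpa or uninjured groups. Over all samples left out in turn its adjusted p reached 0.400.

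The hoxc13 promoter, window 3 on chromosome 2 (143026469 to 143026868), had the smallest p of the Hox windows at 6hpa. In Xenopus, hoxc12 and hoxc13 take part in limb regeneration. In uninjured tails this window held 8.71, 3.85 and 4.28 CPM in all-tissue and 3.14 and 3.33 CPM in pax6 samples. At 6hpa it held 6.40, 6.35 and 10.1 CPM in all-tissue and 8.34, 9.79 and 5.47 CPM in pax6 samples. The log2 fold change was 0.84 ± 0.21 (edgeR's quasi-likelihood test, adjusted p = 0.264). The pax6 groups did not overlap, whereas 1 uninjured all-tissue sample lay above 2 of the 3 all-tissue samples at 6hpa. The log2 fold changes over uninjured at 0hpa and 24hpa were 0.27 ± 0.24 and 0.53 ± 0.21.

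At 72hpa the hoxc13 promoter held 7.09, 5.71 and 7.77 CPM in all-tissue and 9.07, 5.87 and 6.13 CPM in pax6 samples, with a log2 fold change of 0.68 ± 0.21 (adjusted p = 0.148 with edgeR). The hoxa13 promoter (window 2, at the TSS) had the smallest p at that time. hoxa13 shapes the ends of the limbs in mouse. Its window held 5.61, 5.27 and 6.29 CPM in all-tissue and 5.01 and 3.33 CPM in pax6 samples from uninjured tails. At 72hpa it held 7.40, 8.22 and 8.95 CPM in all-tissue and 7.19, 6.01 and 8.30 CPM in pax6 samples. All 72hpa samples of each tissue lay above its uninjured samples, and the log2 fold change was 0.58 ± 0.17 (adjusted p = 0.132 with edgeR). The third promoter of the group, that of hoxd13, had a log2 fold change of -0.0007 ± 0.18 at 72hpa, with no direction to read. The higher values of the hoxa13 and hoxc13 promoters were thus not seen at the whole group.

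hoxb1 window 5, the most accessible Hox window, had values below those of uninjured tails at 24hpa. In uninjured tails it held 222, 213 and 210 CPM in all-tissue and 209 and 256 CPM in pax6 samples. As log2 ratios of mean CPM to uninjured, it stood at -0.40 in pax6 and 0.11 in all-tissue samples at 0hpa. The same ratios at 24hpa were -0.45 and -0.31. In pax6 samples the lower level was thus present at 0hpa already. At 24hpa it held 176, 155 and 187 CPM in all-tissue and 190, 162 and 158 CPM in pax6 samples. The 6 samples at 24hpa lay below the 5 uninjured samples, with 515 to 2324 fragments per sample behind this window. The log2 fold change was -0.38 ± 0.09 (edgeR's quasi-likelihood test, adjusted p = 0.101). Without pax6 uninjured replicate 1 it passed the threshold (log2 fold change -0.45, adjusted p = 0.0113), and without pax6 uninjured replicate 2, the highest sample, it was -0.31 (adjusted p = 0.606).

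Further windows with small p at single times did not pass either. The hoxc12 promoter (window 1, 235 bp from the TSS) held 6.19, 4.26 and 4.95 CPM in all-tissue and 4.03 and 2.05 CPM in pax6 uninjured samples. At 24hpa it held 7.95, 6.58 and 6.84 CPM in all-tissue and 6.00, 4.97 and 5.76 CPM in pax6 samples (log2 fold change 0.57 ± 0.19, adjusted p = 0.249 with edgeR). Within each tissue the 24hpa samples were above the uninjured ones. At 0hpa the tissues pointed in opposite directions for the hoxc12 promoter. Its log2 ratios of mean CPM to uninjured were -0.89 in all-tissue and 0.60 in pax6 samples. At 6hpa, hoxb4 window 1 differed from uninjured by 0.54 ± 0.19 and hoxb3 window 1, a hindbrain gene in mouse, by 0.51 ± 0.18 on the log2 scale (adjusted p = 0.469 and 0.485). At 0hpa the upstream hoxc13 windows 8 and 11, 43976 and 80079 bp from the TSS, differed by -0.63 ± 0.26 and -0.59 ± 0.25 (adjusted p = 1.00 for both).

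**Figure D3:**
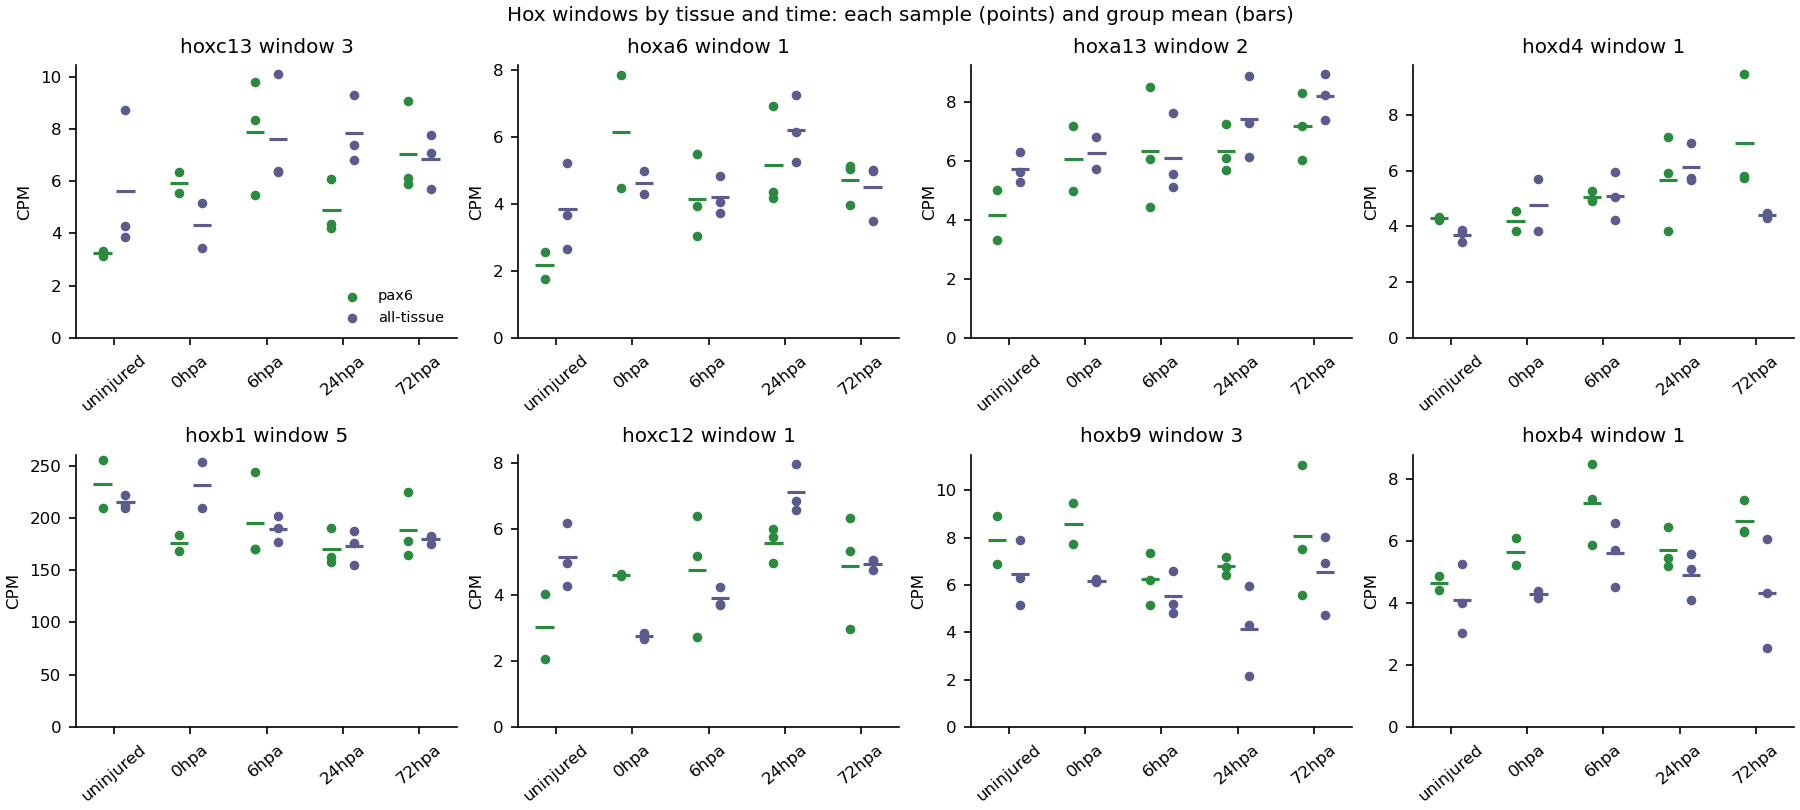
CPM of 8 Hox windows in each of the 27 samples (points) by time, for pax6 (green) and all-tissue (violet) samples, with group means as bars and all axes starting at 0. The pax6 uninjured samples are the lowest points for hoxc13 window 3 (3.14 and 3.33 CPM) and hoxa6 window 1 (1.77 and 2.56 CPM), and hoxb1 window 5 lies between 155 and 256 CPM.

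Comparing the 18 regenerating samples (6, 24 and 72hpa) with the 9 baseline samples (uninjured and 0hpa) used all samples at once. No Hox window was called with edgeR's quasi-likelihood test (0.126% of all windows were) or with DESeq2, and the likelihood ratio test called hoxc13 window 3. At an unadjusted p under 0.05 there were 14 Hox windows (17.9%) beside 11.1% of all windows, 12 of them higher (5.84% of all windows were) and 2 lower (5.24%). The hoxc13 promoter had 3.14 to 8.71 CPM (median 4.28) in baseline and 4.20 to 10.1 CPM (median 6.61) in regenerating samples, with a log2 fold change of 0.55 ± 0.14 (adjusted p = 0.0717). hoxb1 window 5 had 168 to 256 CPM (median 210) in baseline and 155 to 244 CPM (median 177) in regenerating samples (log2 fold change -0.22 ± 0.06, adjusted p = 0.114). The hoxd4 promoter, a gene of the hindbrain and neck region in mouse, had 3.45 to 5.71 CPM (median 3.88) in baseline and 3.84 to 9.49 CPM (median 5.47) in regenerating samples (log2 fold change 0.38 ± 0.12, adjusted p = 0.190). The ranges of the 2 phases overlapped for all 3 windows.

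In the comparison of regenerating with baseline samples, some Hox windows crossed the threshold when single samples were left out. The hoxd4 promoter was not among them. 3 Hox windows passed without all-tissue 0hpa replicate 3 (hoxb1 window 5, the hoxc10 promoter and the hoxc13 promoter). 2 passed without pax6 6hpa replicate 3 (hoxb1 window 5 and the hoxc13 promoter) and 2 without pax6 uninjured replicate 1 (hoxb1 window 5 and the hoxc12 promoter). The hoxc13 promoter alone passed without all-tissue uninjured replicate 1 or without pax6 72hpa replicate 3. Over all samples left out in turn its log2 fold change ran from 0.50 to 0.68 with adjusted p from 0.0225 to 0.231, and that of hoxb1 window 5 from -0.25 to -0.18 with adjusted p from 0.0262 to 0.357. The Hox promoters as a group had 18 of 22 windows above 0 (median 0.11), beside 68.4% of all annotated windows within 1000 bp of a TSS (median 0.10).

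Within each tissue no Hox window was called at any time against uninjured or between successive times, with edgeR or DESeq2. Against uninjured, the shares of all windows called were 0.00, 0.00, 0.00965 and 0.109% in all-tissue and 0.000804, 0.00, 0.00 and 0.00% in pax6 samples at 0, 6, 24 and 72hpa. The Hox windows with an unadjusted p under 0.05 numbered 3, 4, 8 and 4 in all-tissue and 6, 10, 9 and 10 in pax6 samples, in the same order. The corresponding shares of all windows were 3.70, 4.67, 8.07 and 8.16% in all-tissue and 5.34, 7.32, 7.53 and 8.55% in pax6 samples. Between successive times, 24 against 6hpa and 72 against 24hpa, the Hox windows with an unadjusted p under 0.05 numbered 5 and 4 in all-tissue and 5 and 5 in pax6 samples, beside 4.38, 3.99, 7.71 and 7.14% of all windows. The shares of all windows called in these 4 comparisons were 0.00, 0.000804, 0.00 and 0.00%.

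In pax6 cells the hoxa6 promoter had log2 fold changes of 1.43 ± 0.37 at 0hpa, 1.01 ± 0.37 at 6hpa, 1.33 ± 0.34 at 24hpa and 1.23 ± 0.35 at 72hpa (adjusted p = 0.917, 0.503, 0.397 and 0.311 with edgeR). The hoxc13 promoter had 1.31 ± 0.33 at 6hpa (adjusted p = 0.357) and 1.12 ± 0.33 at 72hpa (adjusted p = 0.317). As log2 ratios of mean CPM it stood 0.88 above uninjured at 0hpa and 0.60 above at 24hpa, so in pax6 the mean was higher at 0hpa already. In all-tissue samples the same ratios were -0.38 at 0hpa and 0.48 at 24hpa. All of the pax6 values rest on the same 2 uninjured pax6 samples. In all-tissue samples the smallest p at 24hpa were those of the hoxd4 promoter (0.73 ± 0.25) and the hoxd10 promoter (0.82 ± 0.28), with adjusted p = 0.370 and 0.374. hoxd10 acts in lumbar motor neurons and the hindlimb in mouse. These windows were chosen after their values were seen, for their small p within a tissue.

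**Figure D4:**
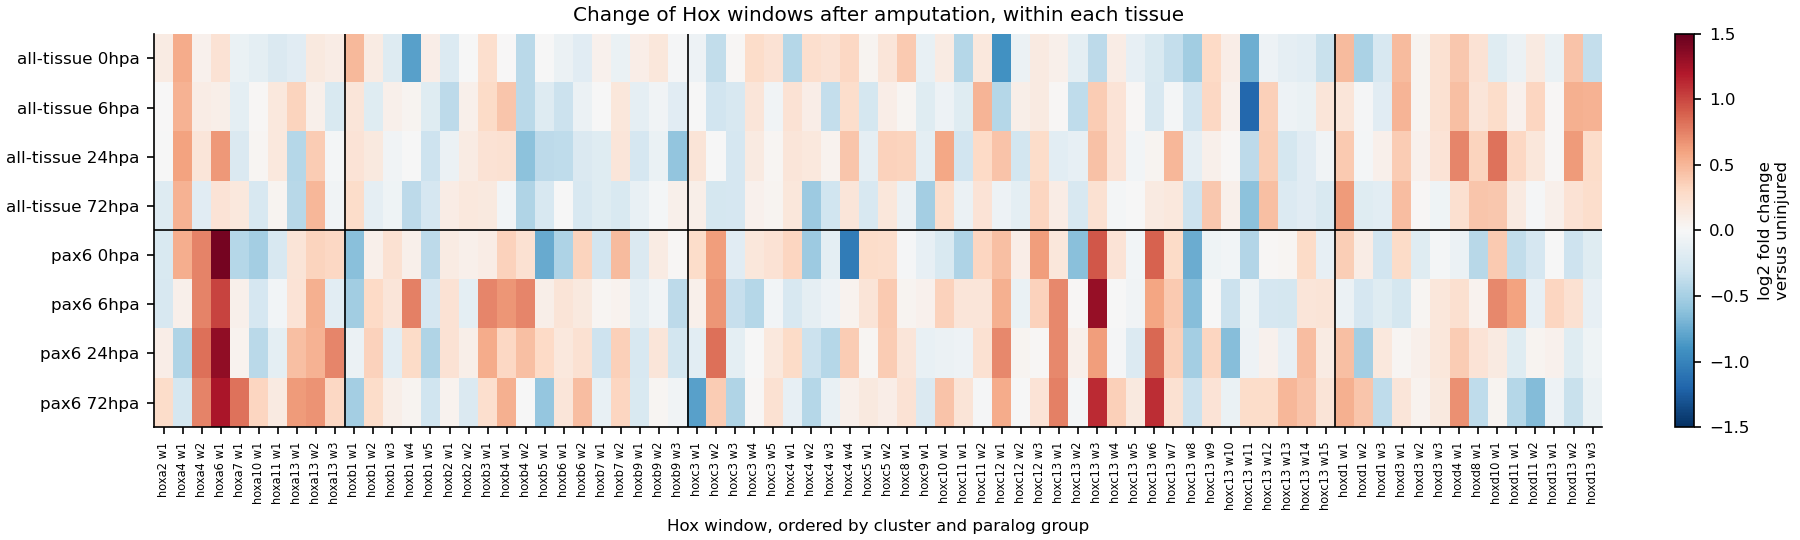
Log2 fold change of 76 of the 78 Hox windows over the uninjured samples of the same tissue (rows: 4 times in each tissue; columns: windows ordered by cluster and paralog group; red above and blue below 0). hoxa6 w1 is red in all 4 pax6 rows (1.01 to 1.43), which share the same 2 uninjured samples, and no window passed the adjusted threshold in any row.

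Whether the response to amputation differed between the tissues was tested as an interaction at 6, 24 and 72hpa, and no Hox window was called with edgeR or DESeq2. Of all windows 0.00, 0.000804 and 0.00% were called. At an unadjusted p under 0.05 there were 9, 5 and 6 of 78 Hox windows (11.5, 6.41 and 7.69%) beside 6223, 6963 and 7045 of all 124342 windows. The Hox share was the higher at each time, most so at 6hpa. The standard errors of the interaction estimates were wide, with a median of 0.42 at 6hpa over the Hox windows. A 2-fold difference in response thus lay outside the 95% interval for 18 of 78 windows at 6hpa. At each later time this held for 27 of 78 windows. The smallest p at 6 and at 24hpa was that of hoxc3 window 2, 5893 bp downstream of the hoxc3 start, with a difference in response of 0.96 ± 0.33 and 0.84 ± 0.32 on the log2 scale (adjusted p = 0.946 and 0.875). Both use the same uninjured samples.

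The genes that work with or upstream of the Hox genes were mostly without calls as well. Hox cofactors of the Meis, Pbx and Pknox families had 87 windows for 7 of 9 listed genes, and edgeR and DESeq2 called none of them between tissues or over time. Between the tissues 8 of the 87 (9.20%) had an unadjusted p under 0.05, beside 14.6% of all windows. Among 84 windows of 13 of 17 genes that act upstream of Hox genes or at the posterior end of the axis, 1 (1.19%, beside 1.81% of all windows) was called, a wnt3a window that was less accessible in pax6 (log2 fold change -0.62, adjusted p = 0.00421 with edgeR). wnt3a encodes a Wnt ligand of the tail bud. Among 85 windows of 14 of 19 Polycomb and Trithorax genes, 2 (2.35%) were called by edgeR and none by DESeq2, 1 near eed and the promoter of cbx8, both encoding Polycomb subunits (log2 fold change -0.44 and -0.42, adjusted p = 0.0498 and 0.0297). Over time no window of the 3 lists was called by either tool. At 72hpa 10, 5 and 19 of them had an unadjusted p under 0.05, in the order cofactors, upstream genes and Polycomb or Trithorax genes. These were 11.5, 5.95 and 22.4% of the windows of each list, beside 11.0% of all windows. At 24hpa the shares were 8.05, 4.76 and 17.6% in the same order, beside 9.86% of all windows.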

How the data were processed

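After adapter trimming (Trim Galore), the authors mapped paired reads to Xenopus tropicalis genome version 9.0 using Bowtie2, called peaks with MACS2 on all alignments merged and counted fragments with featureCounts (versions not given in the sources used here). The deposited values used were these raw counts, whole numbers without normalization, and the gene name and TSS distance of each window from the authors' comparison table. That table also holds the authors' log2 fold changes and p-values between tissues, which were not used, as were their other comparison tables.

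Of 31 libraries, 2 with fewer than 100000 counts were left out, and 2 second libraries were summed with replicate 1 as titled, giving 27 samples. The 124342 windows that reached 1 CPM in 2 or more samples were fitted in R 4.3.3 with edgeR 4.0.16 (TMM, robust quasi-likelihood F test, 10 group means), with Benjamini-Hochberg adjustment over all windows and a threshold of 0.05. CPM are TMM-scaled. SE and 95% intervals come from this fit and intervals are on the log2 scale. The procedure was tested on simulated data. Alternatives were DESeq2 1.42.0, other normalizations, filters and tests, a replicate block and leaving out each sample. Named windows are the called windows or, where fewer than 3 were called, the 3 with the smallest p per main comparison, the promoter windows and the highest window of each cluster. 1 Hox gene is counted in totals and medians, but its own values are not reported here. Members, gene lists and tests were chosen with earlier results of these data known.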

Additional observations from a re-analysis of the deposited data

How the results depend on the processing

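With the threshold at an adjusted p under 0.05, the count of Hox windows called stayed at 0 in every comparison under DESeq2, RLE normalization, library size only, no filter, a filter of 1 CPM in all samples but 1, the second libraries left out, kept apart or (for 72hpa) summed with replicate 2, and fits within each tissue. edgeR's likelihood ratio test called 1 window at 24hpa (hoxa6 window 1) and 1 in regenerating versus baseline (hoxc13 window 3). The fit with the replicate block called 1 in regenerating versus baseline (hoxc13 window 3) and changed no other Hox count. Samples of the same number did not deviate together (median correlation of deviations 0.01 over 108 pairs, 3 above 0.1), so the numbers were not taken to pair samples. Leaving out each sample in turn gave 0 to 1 Hox windows for pax6 versus all-tissue, 0 to 1 for pax6 versus all-tissue in uninjured tails, 0 to 1 at 24hpa and 0 to 3 in regenerating versus baseline, and 0 elsewhere. Counts over all windows moved more. At an adjusted p under 0.05 they were 1043 (second libraries left out) to 3501 (likelihood ratio test) for pax6 versus all-tissue, against 2247 as reported, 7 to 256 at 24hpa (30 as reported), 43 to 846 at 72hpa (224) and 2 to 834 in regenerating versus baseline (157), with the same settings at either end. Leaving out each sample was run for the comparisons of both tissues and for the tissues within each time, and not run for the within-tissue and interaction comparisons.

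At an unadjusted p under 0.01 the counts were 6 for pax6 versus all-tissue, 1 at 0hpa, 3 at 6hpa, 5 at 24hpa, 4 at 72hpa and 6 in regenerating versus baseline (7.69, 1.28, 3.85, 6.41, 5.13 and 7.69% of the Hox windows, beside 6.08, 0.663, 1.93, 3.11, 3.85 and 3.89% of all windows). The same threshold gave 3 in uninjured tails and 2 at 72hpa between the tissues (2492 and 4926 of all 124342 windows). In all-tissue samples it gave 1 at 0hpa, 1 at 6hpa, 2 at 24hpa and 1 for 24 versus 6hpa (0.573, 0.885, 2.31 and 0.807% of all windows). In pax6 samples it gave 2 at 0hpa, 2 at 6hpa, 3 at 24hpa, 3 at 72hpa, 2 for 24 versus 6hpa and 2 for 72 versus 24hpa (1.03, 1.91, 1.77, 2.27, 2.05 and 1.68% of all windows). The interaction at 6hpa gave 1 (1.02% of all windows). None of the windows named for the smallest p in a main comparison turned its direction under any alternative run for it. These windows were chosen for their small p, and the statement does not extend to the other named windows. A 2-fold difference lay outside the 95% interval for 73 to 78 of the 78 Hox windows in the comparisons over both tissues or all times, 46 to 66 between the tissues at single times, 65 to 72 over time in all-tissue samples against uninjured, 50 to 57 in pax6 samples and 18 to 27 in the interactions. Intervals cover the spread between these samples only. The cause of the calls that appear under single alternatives was not tested.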
